A study of Macaca mulatta with 102 samples.

Results

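The genes described here are the core splicing factors of circulating macaque T cells, taken as every gene whose probe set names 1 gene only and whose symbol starts with SRSF, HNRNP, SF3A, SF3B, SNRP or U2AF. There were 42 such genes among 14132 genes with a probe set of that kind. Each gene was represented by the probe set with the highest mean over all arrays, out of 105 probe sets for the 42 genes. A filter on low values kept 41 of them, among 10694 genes kept in all. The gene that was not kept was SRSF12, whose log2 level lay between 4.04 and 4.80 on the 4 NoRx.F arrays. By role the 41 genes were 16 hnRNPs, 7 subunits of SF3A and SF3B, 7 SR proteins, 5 proteins of the Sm core, 3 proteins particular to the U1 or U2 particle, and 3 U2AF subunits. SRSF1, SRSF3, SRSF7, SF3B1, SNRPD1 and SNRPG were not analysed here.

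Splicing removes introns from new transcripts and is carried out by the spliceosome, a large machine built on small nuclear RNAs. Most of these RNAs are wrapped in a ring of Sm proteins. The U1 particle recognises the start of an intron, U2AF and the SF3A and SF3B complexes bring the U2 particle to the branch point near its end, and SR proteins and hnRNPs bind the transcript and promote or repress the use of nearby sites. In T cells the choice of exons changes on activation, the best known case being CD45, whose variable exons are skipped with the help of HNRNPLL and HNRNPL.

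The study profiled CD3 T cells, sorted by FACS from the blood of rhesus macaques. They were taken after allogeneic or autologous haematopoietic cell transplantation (HCT) and from healthy controls. KY1005 is an antibody that blocks OX40 ligand, a costimulatory molecule of T cells. Total RNA was hybridised to Affymetrix 3' expression arrays, and all levels are the authors' log2 values, so that a difference of 1 is a 2-fold change. Of 102 arrays, 46 came from healthy controls, and 2 of these, from 1 animal, were averaged, which left 45 healthy arrays and 66 animals in all.

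The groups carry the names the labels give them. NoRx.F has 4 arrays taken 6 to 12 days after HCT, and Siro.F has 4 arrays of days 12 to 24. KY1005.D14 has 2 arrays of days 14 to 16, and KY1005.F has 3 arrays of days 16 to 23. KY1005.Siro.D14 and KY1005.Siro.D28 have 5 arrays each, of days 14 and 28, and KY1005.Siro.F has 4, of days 97 to 106. Tac.Mtx.D14 and Tac.Mtx.F have 3 arrays each, of day 14 and of days 26 to 67. Bela.Siro.D14 has 3 arrays of day 14, Bela.Siro.D30 has 2 of day 30, and Bela.Siro.F has 7 of days 26 to 105. The autologous groups are Auto.D14 with 3 arrays of day 14, Auto.D36 with 4 of days 30 to 36 and Auto.D100 with 4 of day 100. Healthy.Control arrays carry no day after HCT in the labels. Some of their animals also have arrays in a transplant group, so that the healthy and transplanted animals are not separate sets. The labels do not spell out the abbreviations. The usual reading is no prophylaxis for NoRx, sirolimus for Siro, tacrolimus with methotrexate for Tac.Mtx and belatacept with sirolimus for Bela.Siro, and the letter F is not explained. Prophylaxis was given against graft-versus-host disease. All the animals of a transplant group were transplanted, so that the healthy arrays differ from every other array in the transplant as well as in its prophylaxis.

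All groups were compared in 1 limma fit with the labelled batch (6 batches) as a term, with p-values adjusted by Benjamini-Hochberg over all probe sets kept, and a gene is said to have risen or fallen where its adjusted p was under 0.05. The means printed are plain means of the arrays, whereas the differences come from the fit, so that the 2 need not match exactly. Array medians ran from 5.13 to 5.35. Of the T cell markers listed, only CD5 and CD28 had a probe set kept, so the sort could be checked on these alone. On 6 arrays the actin 3' control probe set exceeded the 5' one by more than 2.5 on the log2 scale, a sign of shortened RNA: 2 of the 3 Auto.D14 arrays and 4 healthy arrays. Results that rest on those arrays are given with and without them.

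In healthy T cells the splicing factors were bright and steady. Their mean levels ran from 6.30 for U2AF1L4, a minor relative of U2AF1, to 12.63 for HNRNPH1, an RNA-binding protein of G-rich runs. HNRNPK, which binds C-rich RNA, averaged 12.52, and HNRNPDL, a relative of the AU-rich binding HNRNPD, averaged 12.46. At the low end were SRSF11 at 7.44 and SRSF8 at 8.64, both SR proteins. Levels of different probe sets are given for each gene and are not ranked against each other as amounts of RNA. The median SD over the 45 healthy arrays was 0.202 for the splicing factors, against 0.234 for all genes. HNRNPC and HNRNPH2 varied far more than that, with SDs of 0.724 and 0.786, and both were lowest on arrays with a high actin difference, as described at the end of these results.

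NoRx.F T cells differed most from healthy T cells. Of 41 splicing factors, 16 were higher and 7 were lower in NoRx.F. Over all genes 19% were higher and 15.3% lower, and among genes with a healthy mean of 8.5 or more, a level chosen after seeing the data, 24.1% were higher and 28.5% lower, while of the 39 splicing factors that bright the same 16 were higher and 7 lower. A larger share of the splicing factors than of all genes was thus higher, and a share near or under that of all genes was lower. The median difference of the splicing factors was 0.15, against 0.05 for all genes. Of the 8 proteins of the small nuclear particles 7 rose and 1 fell, and the other 9 rises were 4 hnRNPs, 3 subunits of SF3A and SF3B, 1 SR protein and 1 U2AF subunit. The falls other than SNRPN were 4 of the 16 hnRNPs and 2 of the 7 SR proteins. The roles were not tested against each other. In these bulk samples, fewer cells of a type and less RNA per cell cannot be told apart.

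**Figure D1:**
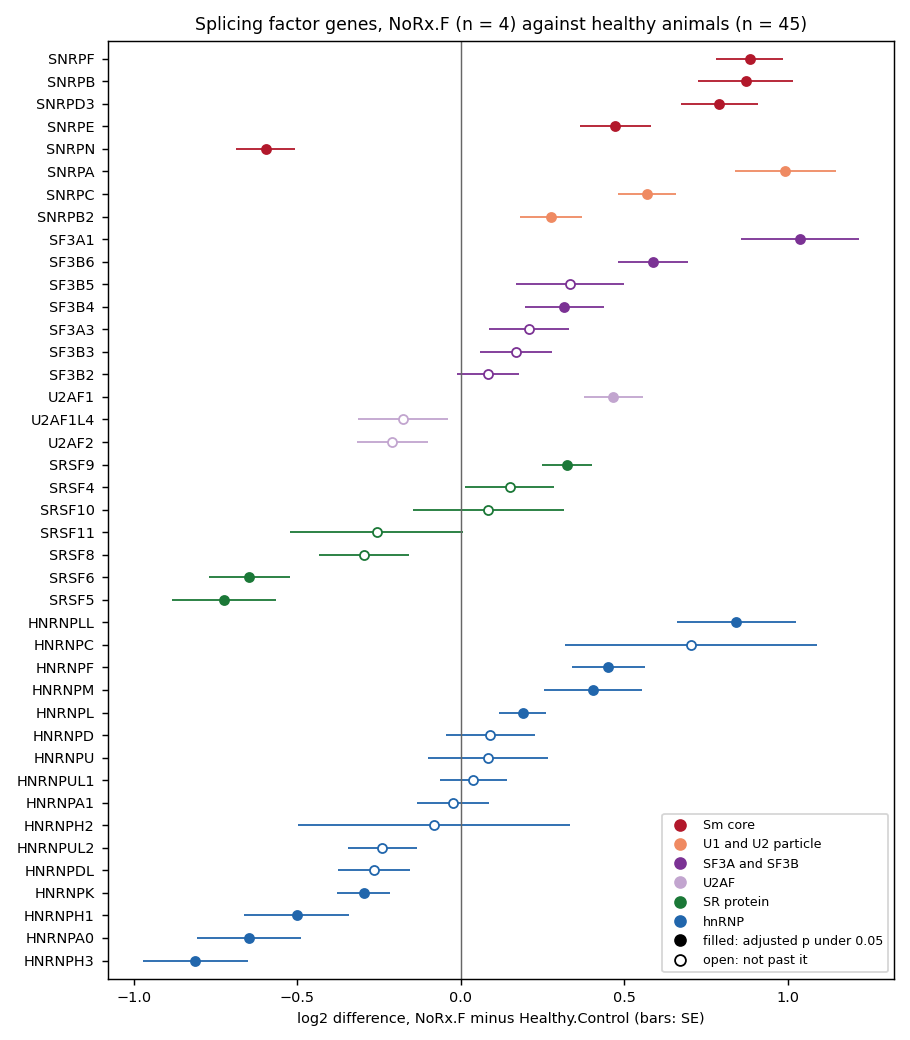
Log2 difference of NoRx.F minus Healthy.Control for the 41 splicing factors, grouped by role, with bars for the standard error of the fit. Filled points passed an adjusted p of 0.05: the SNRP genes other than SNRPN lie right of 0, SF3A1 has the largest rise at 1.04, and HNRNPH3 has the largest fall at -0.81.

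The Sm core is the ring of proteins that holds most spliceosomal RNAs. SNRPF, a subunit of that ring, read 10.64, 11.25, 10.60 and 11.11 on the 4 NoRx.F arrays, whereas the healthy arrays ran from 9.70 to 10.22 with a median of 10.02. All NoRx.F arrays lay above all healthy arrays, and the difference was 0.88 ± 0.10 (SE, limma, adjusted p = 5.77e-11). SNRPB, the ring subunit that most cells use at its position, read 10.37, 10.48, 9.80 and 10.58 in NoRx.F, against 8.69 to 9.79 with a median of 9.46 in healthy arrays. It rose by 0.87 ± 0.14 (adjusted p = 9.96e-07), and the lowest NoRx.F array was just above the highest healthy one. SNRPD3, another ring subunit, read 10.64, 11.15, 10.44 and 10.83 in NoRx.F, against 9.52 to 10.26 in healthy arrays. It too rose without overlap, by 0.79 ± 0.12 (adjusted p = 8.55e-08). SNRPE, also of the ring, rose by 0.47 ± 0.11 (adjusted p = 0.00035), with an NoRx.F mean of 11.99 against a healthy mean of 11.50 and with some overlap.

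SNRPN moved the other way. It encodes a close relative of SNRPB that is transcribed from the paternal allele only and is best known from the brain. Its level was 10.91, 10.93, 10.75 and 10.98 in NoRx.F, against 11.02 to 11.95 with a median of 11.49 in healthy arrays. Every NoRx.F array was below every healthy array, and the difference was -0.60 ± 0.09 (adjusted p = 8.84e-08). Its other probe set differed by -0.49 (adjusted p = 0.0376). Of the 41 splicing factors 4 had all NoRx.F arrays above all healthy arrays (SNRPF, SNRPB, SNRPD3 and SF3A1) and 1 had them all below (SNRPN), against 4.63% and 2.54% of all genes.

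The proteins particular to U1 and U2 all rose. SNRPA, which binds a loop of U1 RNA, read 9.50, 10.19, 9.06 and 9.89 in NoRx.F, against 8.19 to 9.08 with a median of 8.69 in healthy arrays. The difference was 0.99 ± 0.15 (adjusted p = 2.43e-07), and only the NoRx.F array of R.51 fell inside the healthy range. SNRPC, which steadies the pairing of U1 with the start of the intron, averaged 10.68 in NoRx.F and 10.10 in healthy arrays, a rise of 0.57 ± 0.09 (adjusted p = 1.78e-07). SNRPB2, a U2 protein, rose by 0.28 ± 0.09 (adjusted p = 0.0217), and this call was lost in 3 of the 4 fits that each left out 1 NoRx.F array.

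Of the SF3A and SF3B subunits, which bind the branch point with U2, 3 of 7 rose and none fell. SF3A1 read 10.83, 11.84, 11.30 and 11.28 in NoRx.F, against 9.47 to 10.71 with a median of 10.27 in healthy arrays, which did not overlap. It rose by 1.04 ± 0.18 (adjusted p = 2.83e-06). The 7 other probe sets of SF3A1 disagree with one another: 2 rose, by 0.94 and 0.70, and 2 fell, with differences of -0.34 (adjusted p = 0.0336) and -0.47 (adjusted p = 0.000643). SF3B6, the subunit that touches the branch point base, averaged 11.60 in NoRx.F and 11.03 in healthy arrays and rose by 0.59 ± 0.11 (adjusted p = 7.62e-06). SF3B4 rose by 0.32 ± 0.12 (adjusted p = 0.0422), a call lost in 2 of the 4 fits that left out an array. SF3A3, SF3B2, SF3B3 and SF3B5 differed by 0.21, 0.08, 0.17 and 0.33 and did not pass the test.

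The U2AF pair, which marks the end of the intron, did not move together. U2AF1, which reads the last bases of the intron, averaged 11.83 in NoRx.F and 11.38 in healthy arrays and rose by 0.47 ± 0.09 (adjusted p = 2.51e-05). Its partner U2AF2, which binds the pyrimidine tract, differed by -0.21 ± 0.11 (adjusted p = 0.151), and U2AF1L4 by -0.18 (adjusted p = 0.371).

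Among the SR proteins, which mark exons for inclusion, SRSF5 and SRSF6 fell and SRSF9 rose. SRSF5 read 12.12, 11.70, 11.32 and 11.75 in NoRx.F, against 11.80 to 12.87 with a median of 12.52 in healthy arrays. Only the array of R.53 lay within the healthy range, and the difference was -0.72 ± 0.16 (adjusted p = 0.000188). Another of its probe sets differed by -1.29 (adjusted p = 4.45e-13). SRSF6 read 11.37, 11.14, 10.56 and 10.89 in NoRx.F, against 10.95 to 12.04 in healthy arrays. The last 2 of these lay below all healthy arrays, and the gene fell by 0.65 on the log2 scale (adjusted p = 2.01e-05). The other probe set of SRSF6 showed no such fall, with a difference of 0.00 (adjusted p = 0.999). SRSF9 rose by 0.32 ± 0.08 (adjusted p = 0.00059). SRSF4, SRSF8, SRSF10 and SRSF11 did not pass the test, with differences of 0.15, -0.29, 0.08 and -0.26.

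The hnRNPs were divided, with 4 rises and 4 falls among 16. HNRNPLL, the factor of CD45 exon skipping, read 10.40, 10.62, 11.08 and 11.02 in NoRx.F, against 9.26 to 10.76 with a median of 9.96 in healthy arrays. It rose by 0.84 ± 0.18 (adjusted p = 0.000155), with 2 of 4 NoRx.F arrays inside the healthy range and another probe set rising by 1.14. HNRNPL, its relative, rose by only 0.19 ± 0.07 (adjusted p = 0.0386), and 3 of the 4 fits without an NoRx.F array lost that call. HNRNPF, which binds G-rich RNA, rose by 0.45 (adjusted p = 0.000908), and HNRNPM rose by 0.40 (adjusted p = 0.0335).

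The 4 hnRNPs that fell were HNRNPH3, HNRNPA0, HNRNPH1 and HNRNPK. HNRNPH3, a relative of HNRNPF and HNRNPH1, read 10.45, 10.25, 9.41 and 9.51 in NoRx.F, against 10.12 to 11.40 in healthy arrays. It differed by -0.81 ± 0.16 (adjusted p = 3.22e-05), and the arrays of R.51 and R.52 lay below all healthy arrays. HNRNPA0, which binds AU-rich RNA, read 10.59, 10.76, 9.86 and 10.77 in NoRx.F, against 10.64 to 11.72 in healthy arrays, a difference of -0.65 ± 0.16 (adjusted p = 0.00092), with the arrays of R.53 and R.51 below all healthy arrays. HNRNPH1 differed by -0.50 (adjusted p = 0.0121). HNRNPK differed by -0.30 (adjusted p = 0.00314), but none of its 4 other probe sets fell, all having differences above 0. HNRNPA1, a repressor of exon inclusion, differed by -0.02 (adjusted p = 0.904), and HNRNPC, which binds U-rich tracts, by 0.70 ± 0.38 (adjusted p = 0.176).

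Several of these genes have more than 1 probe set. Of the 23 splicing factors called in NoRx.F, 16 had other probe sets, 38 in all. Of these 38, 25 moved in the same direction as the chosen probe set, 12 of them past the threshold, and the 2 that passed it in the opposite direction both belonged to SF3A1. A gene that was not called by its chosen probe set could be called by another one: for HNRNPDL the chosen probe set differed by -0.26 (adjusted p = 0.0655), and 2 others by -2.20 (adjusted p = 5.61e-11) and -1.002 (adjusted p = 1.79e-06).

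One NoRx.F animal, R.53, also had a healthy array. In that animal the level after HCT minus the healthy level was 1.11 for SNRPB, 0.92 for HNRNPLL, 0.90 for SF3A1, 0.73 for SNRPA and 0.67 for SNRPF. It was -0.57 for SNRPN, -0.70 for SRSF5 and -0.74 for HNRNPH3. These signs are those of the group comparison, which includes both arrays of this animal.

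**Figure D2:**
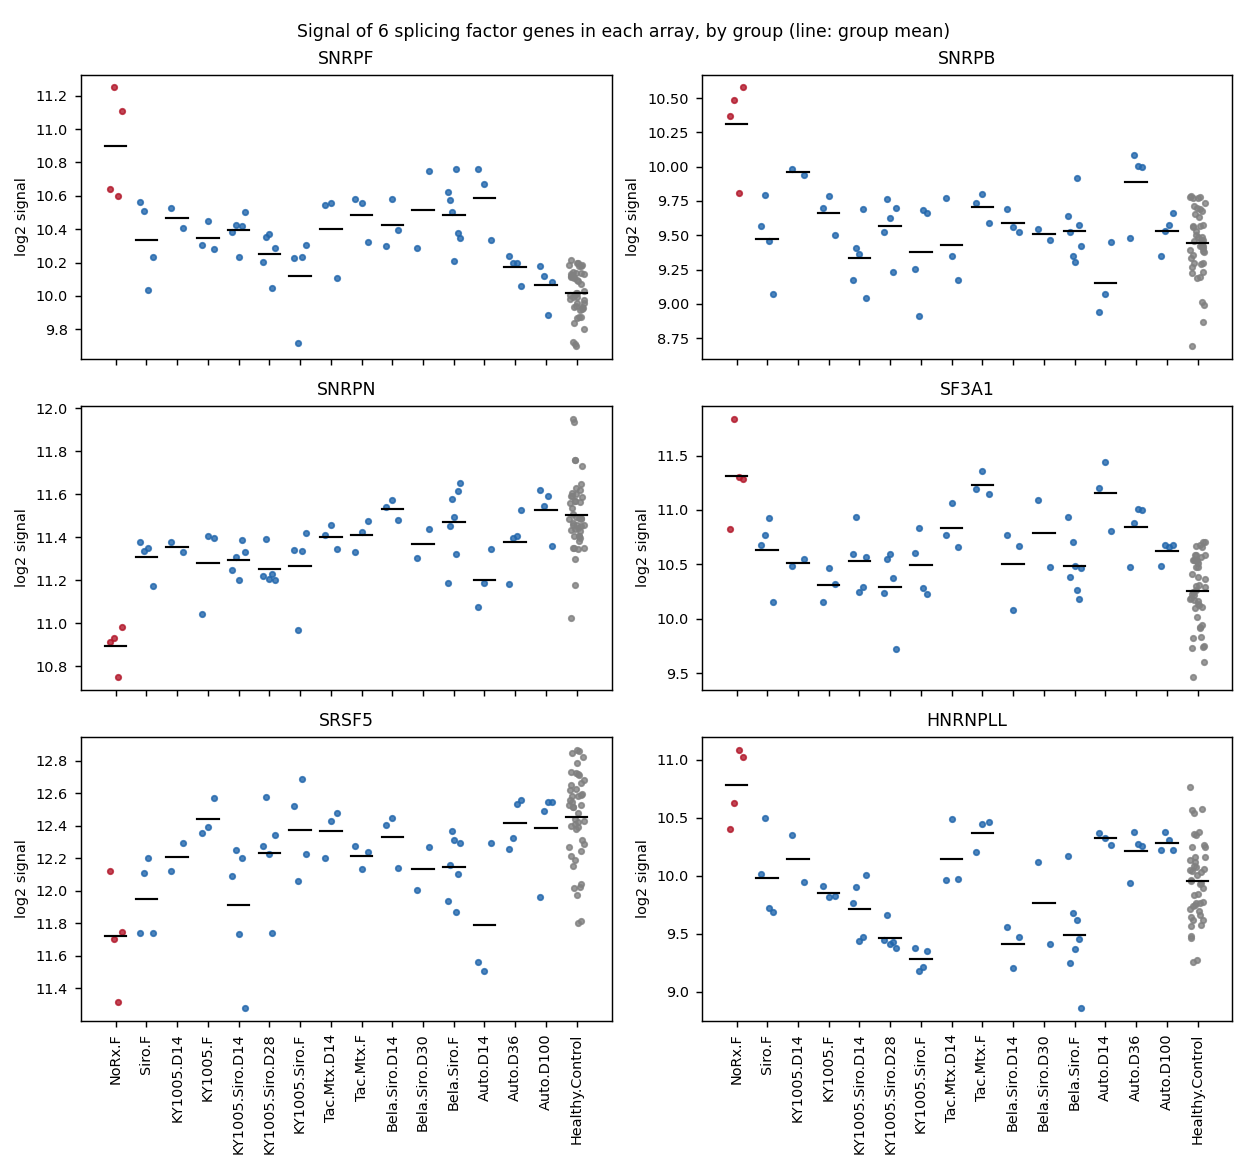
Log2 level of SNRPF, SNRPB, SNRPN, SF3A1, SRSF5 and HNRNPLL on every array, by group, with Healthy.Control at the right and a line at each group mean. NoRx.F lies above all healthy arrays for SNRPF, SNRPB and SF3A1 and below all of them for SNRPN, while SRSF5 and HNRNPLL overlap.

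Division genes and some genes of other cell types also differed in NoRx.F. All 13 division genes measured, such as CCNB2 (4.69) and TYMS (4.02), rose in NoRx.F against healthy arrays. Their mean level per array was 9.16 for R.53, 10.26 for R.50, 8.97 for R.51 and 10.23 for R.52, whereas healthy arrays lay between 6.44 and 7.82. The mean of the 7 SNRP genes other than SNRPN was 10.54, 10.99, 10.30 and 10.86 on the same NoRx.F arrays, against 9.70 to 10.18 in healthy arrays, so that the arrays of R.50 and R.52 were the highest in both. Of 8 myeloid genes 3 rose, namely S100A9 (4.73), S100A8 (4.48) and FCN1 (2.16). The others were not called: VCAN (1.82) and LYZ (1.77) lay above 0, and CD68 (-0.91), CD14 (-0.24) and CSF1R (-0.05) below it. The mean of the 8 genes ran from 6.25 to 9.45 in NoRx.F, against 4.89 to 8.00 in healthy arrays. Both NK cell genes fell, KLRF1 by 2.79. CD79B of 5 B cell genes and MZB1 of 4 plasma cell genes rose, and none of 5 granulocyte, 4 erythroid or 4 platelet genes was called. CD5 fell by 0.48, and CD28 differed by -0.10 (adjusted p = 0.831). The part of these differences in the splicing factor values was not tested.

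The wider splicing machinery was examined through a list of 78 other genes, of which 59 were measured. In NoRx.F against healthy arrays 15 of the 59 rose and 16 fell, against the 19% and 15.3% of all genes and the 24.1% and 28.5% of bright genes given above. The largest rises were in CASC3 (0.97), of the exon junction complex, SFPQ (0.77), a protein of nuclear paraspeckles, and TXNL4A (0.76), of the U5 particle. The largest falls were in CLK4 (-1.31) and CLK1 (-1.17), kinases that phosphorylate SR proteins, and in ELAVL1 (-1.06), which stabilises AU-rich transcripts.

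Prophylaxis groups were first set against the same healthy arrays, which all these comparisons share. Siro.F differed from healthy arrays in 4 splicing factors, of which 1 was higher and 3 were lower, against 6.03% and 4.93% of all genes. SNRPF read 10.56, 10.51, 10.04 and 10.24 in Siro.F, against a healthy range of 9.70 to 10.22, and rose by 0.32 ± 0.10 (adjusted p = 0.0268). SRSF5 read 11.74, 12.11, 12.20 and 11.74 in Siro.F, against 11.80 to 12.87 in healthy arrays, a difference of -0.51 ± 0.15 (adjusted p = 0.0199). HNRNPA0 and SRSF6 were the others, at -0.52 (adjusted p = 0.0181) and -0.37 (adjusted p = 0.0358). SNRPB and HNRNPLL, called in NoRx.F, both differed by 0.05 in Siro.F and did not pass. Within the batches that hold Siro.F the calls of HNRNPA0 and SRSF5 were left, and SNRPF had an adjusted p of 0.0993. Without R.13 the calls of HNRNPA0 and SRSF6 were made, and without R.18 that of HNRNPA0 alone. Without R.16 none of the 3 falls passed, and SNRPF and 1 gene not called with all arrays were higher. Of 9 genes followed through every comparison (HNRNPLL, HNRNPL, HNRNPA1, HNRNPC, HNRNPK, SNRPE, SNRPN, U2AF1 and U2AF2), none was called in Siro.F, and their differences ran from -0.21 for U2AF2 to 0.13 for U2AF1. Of the 13 division genes 12 rose in Siro.F, as did 1 of 5 B cell and 1 of 4 plasma cell genes, and their part in these values was not tested.

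Siro.F animals with a healthy array of their own were R.13, R.18 and R.16. SNRPF was higher after HCT in all 3, by 0.73, 0.64 and 0.10. SRSF5 differed by -0.79, -0.75 and -0.30 in the same animals, and HNRNPA0 by -0.21, -0.27 and -0.99. SRSF6 differed by 0.14 in R.13, against its group difference, and by -0.525 and -0.40 in R.18 and R.16. HNRNPLL differed by 0.76 and 0.74 in R.13 and R.18 but by -0.89 in R.16, so that these animals did not share a direction. Of the other splicing genes 3 rose and 1 fell in Siro.F, with SNRNP35 at 0.74, CASC3 at 0.46, LSM6 at 0.40 and LUC7L at -0.56.

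KY1005 alone left no splicing factor past the threshold. In KY1005.F 0 of 41 were called by limma, against 3.81% of all genes. An unadjusted p under 0.05 was reached by 11 of 41, against 2399 of 10694 genes. The median difference was 0.05 for the splicing factors, against -0.05 for all genes. SNRPF read 10.31, 10.45 and 10.28 in KY1005.F, above all healthy arrays, with a difference of 0.28 ± 0.12 (adjusted p = 0.162). SNRPN differed by -0.28 ± 0.10 (adjusted p = 0.104), and HNRNPLL by -0.18 ± 0.21 (adjusted p = 0.629). In KY1005.D14, with 2 arrays, 0 were called, against 0.271% of all genes. There 7 of 41 had an unadjusted p under 0.05, against 1476 of 10694 genes. Of the other splicing genes LSM6, of the ring that holds U6 RNA, rose by 0.48 in KY1005.F, and CLK3 differed by -0.54. The 9 followed genes ran from -0.28 for SNRPN to 0.90 for HNRNPC in KY1005.F and from -0.21 for SNRPN to 0.83 for HNRNPC in KY1005.D14. Division genes rose in 4 of 13 and myeloid genes in 2 of 8 in KY1005.F. In the same group 1 of 5 granulocyte genes rose and 1 of 5 B cell and 1 of 4 platelet genes fell, and in KY1005.D14 1 division gene rose.

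KY1005 with sirolimus gave few calls. In KY1005.Siro.D14 1 splicing factor was higher and 1 lower, against 1.68% and 2.95% of all genes. SNRPF read 10.38, 10.42, 10.24, 10.42 and 10.50, above all healthy arrays, and rose by 0.33 ± 0.10 (adjusted p = 0.0443). SRSF5 read 12.09, 12.25, 11.73, 12.21 and 11.28 and fell by 0.58 on the log2 scale (adjusted p = 0.0212). Neither was called against the 7 healthy arrays of the same batch alone, and each fit without 1 KY1005.Siro.D14 array made 1 call, or 0 without R.221. The 9 followed genes, none of them called, ran from -0.32 for HNRNPLL to 0.16 for SNRPE. None of the 59 other splicing genes and none of the 13 division genes was called in KY1005.Siro.D14, whereas 3 of 8 myeloid genes rose and 1 gene each of the B cell, plasma cell and platelet lists fell.

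In KY1005.Siro.D28 4 splicing factors were higher and 3 lower, against 4.25% and 7.02% of all genes. The rises were HNRNPH2 (1.42), HNRNPH1 (0.59), SRSF6 (0.40) and HNRNPL (0.20), and the falls were HNRNPLL (-0.57), HNRNPF (-0.48) and SNRPN (-0.31). HNRNPLL read 9.45, 9.66, 9.41, 9.43 and 9.37 on these arrays, close together at the low end of the healthy range of 9.26 to 10.76. Without the arrays of high actin difference, all of them healthy or Auto.D14, 1 of the 7 calls was left, and within the batch none was. Without the array of R.217 or that of R.221, 4 genes were called. Of the other splicing genes 5 rose and 3 fell, led by RBM17 (0.63), CRNKL1 (0.40) and LSM6 (0.38) among the rises. LUC7L3 (-0.53), PTBP1 (-0.45), a repressor that binds pyrimidine tracts, and DHX16 (-0.40) were the falls. Of the 9 followed genes the 6 not called in KY1005.Siro.D28 lay between -0.05 for U2AF2 and 0.68 for HNRNPC, and no division or myeloid gene was called. One gene each of the 5 B cell (-2.23), 4 plasma cell (-1.24) and 4 platelet (-2.97) genes fell in KY1005.Siro.D28.

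By KY1005.Siro.F, near day 100, 0 splicing factors were higher and 5 lower, against 4.46% and 3.39% of all genes. HNRNPLL read 9.38, 9.18, 9.22 and 9.35, against a healthy median of 9.96, and differed by -0.75 ± 0.19 (adjusted p = 0.00846). SF3B4 (-0.41), SF3B3 (-0.38), SNRPB2 (-0.33) and SNRPN (-0.30) were the other falls. The array of R.219 was the lowest of the 4 for SNRPF, SNRPB, SNRPD3 and SNRPA, and its myeloid list mean was 10.86. That mean was 5.55 for R.217, 9.39 for R.220 and 9.55 for R.221, against 4.89 to 8.00 in healthy arrays. Without R.219 no gene was called, without R.220 1 was, and without the arrays of high actin difference 1 was. Of the 9 followed genes the 7 not called in KY1005.Siro.F lay between -0.27 for U2AF2 and 0.57 for HNRNPC. LSM6 (0.41) rose and LUC7L3 (-0.53), PTBP1 (-0.44) and DDX23 (-0.38) were the largest of 4 falls among the other splicing genes. In this group 5 of 8 myeloid, 3 of 5 granulocyte and 2 of 4 erythroid genes rose, and 1 of the 2 T cell genes fell; their part in the splicing factor values was not tested.

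The tacrolimus groups followed. In Tac.Mtx.D14 0 splicing factors were called, against 1.16% of all genes. An unadjusted p under 0.05 was reached by 7 of 41, against 1671 of 10694 genes. In Tac.Mtx.F 4 were higher and 1 lower, against 10.1% and 2.82%. SF3A1 read 11.19, 11.36 and 11.15 in Tac.Mtx.F, above all healthy arrays, and rose by 0.97 ± 0.20 (adjusted p = 0.000636). SNRPF (0.48), SF3B3 (0.39) and SNRPD3 (0.36) also rose there, and HNRNPH1 differed by -0.54. Without R.21 there were 2 calls and without R.20 there were 3, and in Tac.Mtx.D14 there was 1 without R.19. The 9 followed genes, none of them called, ran from -0.06 for HNRNPK to 0.37 for HNRNPC in Tac.Mtx.D14 and from -0.10 for HNRNPA1 to 0.36 for HNRNPLL in Tac.Mtx.F. Of the other splicing genes 4 rose in Tac.Mtx.F, led by LSM6 (0.51), CASC3 (0.50) and SNRNP25 (0.38). The 8 that fell were led by RNPC3 (-0.80) and SNRNP48 (-0.62), both of the minor spliceosome, and CLK4 (-0.61). In Tac.Mtx.F 10 of 13 division genes and 2 of 8 myeloid genes rose, and in Tac.Mtx.D14 1 division gene and 1 of 4 erythroid genes did.

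In Bela.Siro.D14 2 were higher and 0 lower, against 2.32% and 0.767% of all genes, namely SNRPF (0.42) and SNRPC (0.34), with 1 call without R.38 and 0 without R.42 or R.49. In Bela.Siro.D30, with 2 arrays, the only call was SNRPF (0.51), against 1.22% of all genes, and it was lost without R.42. In Bela.Siro.F 4 were higher and 2 lower, against 7.85% and 3.82%. SNRPF had a lowest value of 10.21, a median of 10.50 and a highest value of 10.76 over the 7 Bela.Siro.F arrays and rose by 0.48 ± 0.08 (adjusted p = 1.47e-05). SF3B5 (0.48), SNRPE (0.30) and SNRPC (0.22) rose with it. HNRNPLL, with a lowest value of 8.86, a median of 9.45 and a highest value of 10.17, differed by -0.53 ± 0.14 (adjusted p = 0.0102), and SRSF4 by -0.33. The followed genes not called ran from -0.60 for HNRNPLL to 0.90 for HNRNPC in Bela.Siro.D14, from -0.28 for HNRNPC to 0.27 for SNRPE in Bela.Siro.D30, and from -0.33 for HNRNPC to 0.13 for HNRNPL in Bela.Siro.F. The other splicing genes called were SNRNP25 (0.43) in Bela.Siro.D14, LSM6 (0.64) in Bela.Siro.D30, and LSM6 (0.61) and DHX8 (0.55) in Bela.Siro.F. Of the 8 myeloid genes 3 rose in Bela.Siro.D14 and 4 in Bela.Siro.F, and 1 of the 13 division genes rose in each of these groups. In Bela.Siro.F 1 of 5 granulocyte genes rose and 1 of 2 NK cell genes fell.

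**Figure D3:**
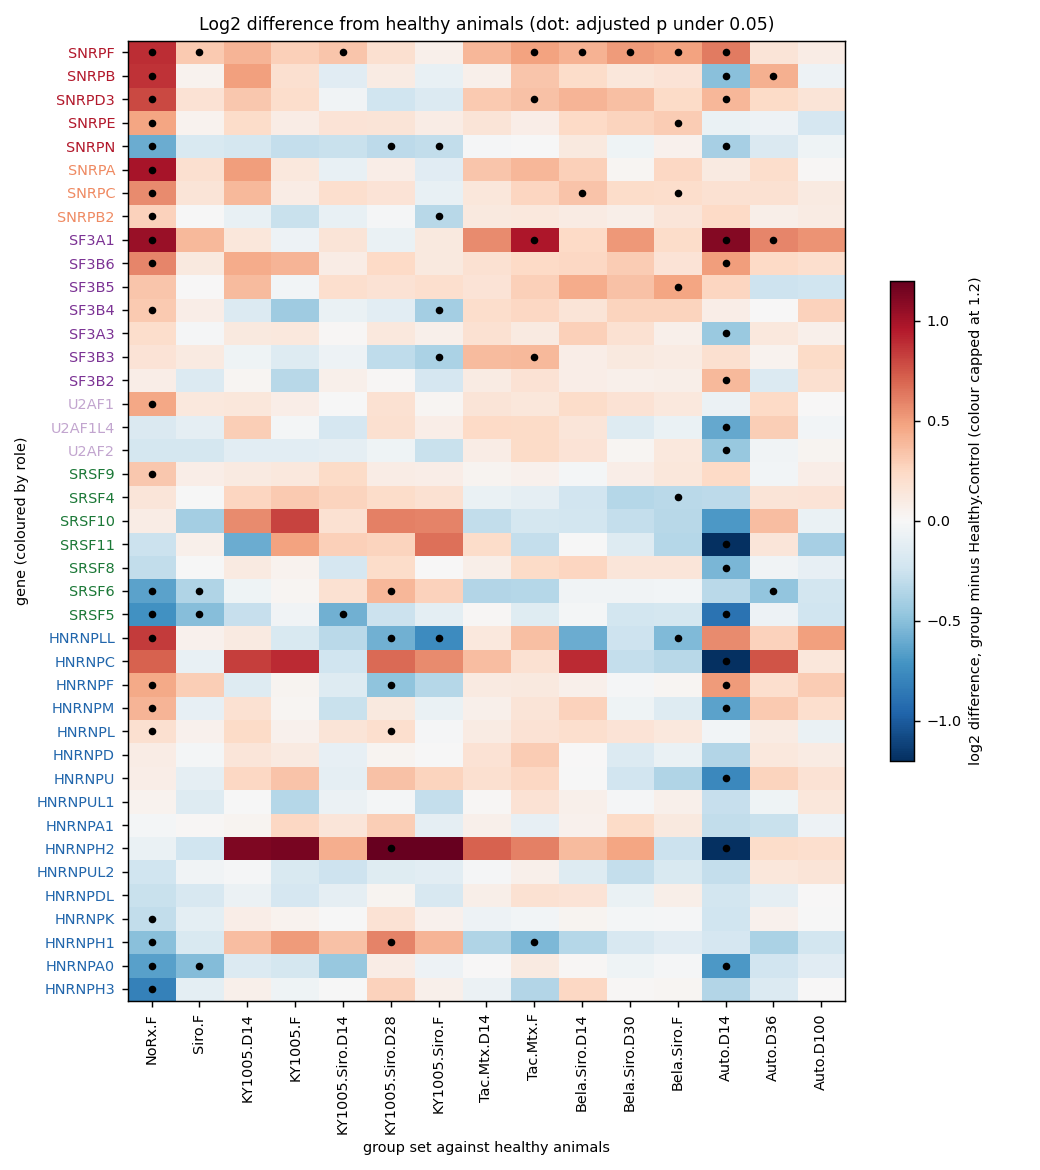
Log2 difference of each of the 15 transplant groups minus Healthy.Control for the 41 splicing factors, by role, with a dot where the adjusted p was under 0.05 and with colours capped at 1.2 in either direction. NoRx.F carries 23 dots and Auto.D14 carries 19, and no other group more than 7.

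Autologous recipients at day 14 had 6 splicing factors higher and 13 lower, against 13.7% and 7.83% of all genes. SF3A1 (1.10), SNRPF (0.62), HNRNPF (0.51), SF3B6 (0.51), SNRPD3 (0.40) and SF3B2 (0.39) were higher in Auto.D14. The largest falls were in HNRNPC (-2.11), HNRNPH2 (-1.39), SRSF11 (-1.27), SRSF5 (-0.88), HNRNPU (-0.77), HNRNPA0 (-0.69), HNRNPM (-0.64) and U2AF1L4 (-0.61). HNRNPC read 8.29 for R.201, 8.16 for R.202 and 10.73 for R.200, against a healthy median of 10.52. The first 2 arrays are those with a high actin difference, 3.30 and 3.38, while that of R.200 was 0.44. Without them and the 4 healthy arrays of that kind, 1 Auto.D14 array was left, which limma takes to vary like the other groups, and in that fit 0 splicing factors and 0 of all genes were called. The differences in that fit were 0.76 for SF3A1, 0.36 for SNRPF, -0.45 for HNRNPC, -0.38 for SRSF5 and 0.12 for HNRNPH2. With the actin difference as a covariate and all arrays kept, 9 genes were called, 8 of them among the 19, and within the batch of Auto.D14 11 of the 19 were. Without R.201 alone 5 genes were called, without R.202 alone 3, and without R.200, which leaves the 2 arrays of high actin difference, 7 were higher and 19 lower. Of the 9 followed genes SNRPN (-0.40) and U2AF2 (-0.45) also fell with all arrays in the fit, and the 6 not called ran from -0.30 for HNRNPA1 to 0.57 for HNRNPLL. Among the other splicing genes 6 rose in Auto.D14, led by DHX8 (0.76), CASC3 (0.70) and LSM3 (0.69), and 8 fell, led by NONO (-1.62), CDC5L (-1.04) and TRA2A (-0.94). Division genes rose in 11 of 13, and 2 of 5 B cell and 1 of 4 plasma cell genes fell.

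Autologous recipients were also sampled later. In Auto.D36 2 splicing factors were higher and 1 lower, against 5.76% and 5.28% of all genes. SF3A1 read 10.47, 10.88, 11.01 and 10.997 and rose by 0.59 ± 0.18 (adjusted p = 0.0238), SNRPB rose by 0.43 ± 0.14 (adjusted p = 0.0413), and SRSF6 differed by -0.47 ± 0.12 (adjusted p = 0.00777). Without R.200 none of these was called, and without R.201 or R.202 1 gene was. In Auto.D100 0 were called, against 3.03% of all genes. There 4 of 41 had an unadjusted p under 0.05, against 2003 of 10694 genes. The 9 followed genes, none of them called, ran from -0.27 for HNRNPA1 to 0.75 for HNRNPC in Auto.D36 and from -0.20 for SNRPE to 0.49 for HNRNPLL in Auto.D100. Of the other splicing genes NONO (1.18) and SNRNP25 (0.48) rose in Auto.D36, and CLK4 (-0.57), SNRNP48 (-0.56) and LUC7L (-0.42) were the largest of 4 falls. Division genes rose in 11 of 13 in Auto.D36 and in 1 of 13 in Auto.D100, and 2 of 8 myeloid genes rose in Auto.D36.

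The prophylaxis groups were then set against NoRx.F itself. These comparisons share the NoRx.F arrays with each other. In Siro.F 2 splicing factors were higher and 9 lower than in NoRx.F, against 3.88% and 5.16% of all genes. The Siro.F arrays are of days 12 to 24 and those of NoRx.F of days 6 to 12, which meet only at day 12. Day and treatment can thus not be fully told apart in this comparison. The median difference of the splicing factors was -0.19, against -0.03 for all genes. SNRPB read 9.57, 9.79, 9.46 and 9.07 in Siro.F, against 10.37, 10.48, 9.80 and 10.58 in NoRx.F, a difference of -0.82 ± 0.17 (adjusted p = 0.00102), with no overlap. SNRPF (-0.57), SNRPD3 (-0.61) and SF3B6 (-0.47) were lower without overlap too. Of the 41 splicing factors, called or not, 5 lay wholly below NoRx.F and 2 wholly above it. Over all 10694 genes these counts were 587 and 400. SNRPA (-0.80), HNRNPLL (-0.79), SNRPE (-0.43), SNRPC (-0.41) and U2AF1 (-0.34) were lower with overlap.

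HNRNPH3 (0.69) and SNRPN (0.41) were higher in Siro.F than in NoRx.F. SNRPN read 11.38, 11.33, 11.35 and 11.17 in Siro.F, against 10.91, 10.93, 10.75 and 10.98 in NoRx.F. In a fit of only these 2 groups within their shared batches, 0 of 41 passed, while the values were similar, such as -0.91 for SNRPB (adjusted p = 0.149) and 0.40 for SNRPN (adjusted p = 0.297). The mean of the division genes was 8.60, 9.40, 7.56 and 7.93 on the Siro.F arrays of R.13, R.18, R.17 and R.16, and the mean of the 7 SNRP genes other than SNRPN was 10.32, 10.34, 9.84 and 9.94. The arrays of R.13 and R.18 were thus higher in both, and these 2 form batch 2 of Siro.F. The 11 calls became 4 without R.17, and 7 or 5 without the NoRx.F array of R.50 or R.52. Of the other splicing genes 5 were higher in Siro.F, led by CLK4 (1.09), CLK1 (1.07) and RBM39 (0.67), and 7 were lower, led by LSM3 (-0.73), TXNL4A (-0.58) and CASC3 (-0.51). The 5 followed genes not called in Siro.F against NoRx.F ran from -0.79 for HNRNPC to 0.18 for HNRNPK, and 9 of 13 division genes were lower in Siro.F.

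KY1005.F had 3 splicing factors higher and 9 lower than NoRx.F, against 4.54% and 6.54% of all genes. SF3A1 read 10.16, 10.47 and 10.32 in KY1005.F, against 10.83, 11.84, 11.30 and 11.28 in NoRx.F, a difference of -1.10 ± 0.28 (adjusted p = 0.0068). HNRNPLL read 9.91, 9.81 and 9.82 in KY1005.F, against 10.40, 10.62, 11.08 and 11.02 in NoRx.F, a difference of -1.03 ± 0.28 (adjusted p = 0.013). Both were lower on every KY1005.F array than on any NoRx.F array. SNRPA (-0.87), SF3B4 (-0.74), SNRPB (-0.68), SNRPF (-0.60), SNRPD3 (-0.58) and SNRPB2 (-0.54) were lower without overlap, and SNRPC (-0.48) with it. Of the 41 splicing factors, called or not, 11 lay wholly below NoRx.F and 9 wholly above it. Over all 10694 genes these counts were 1599 and 1058. HNRNPH1 (1.02), HNRNPH3 (0.76) and SRSF6 (0.67) were higher in KY1005.F.

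KY1005.F and NoRx.F share no batch, and the days of their arrays do not overlap. Batch is bridged only through the healthy arrays of each batch. Day and treatment cannot be told apart in this comparison. Without a batch term 19 genes were called, without R.212 5 were, and without the arrays of high actin difference 7 were. Division genes averaged 9.35, 7.94 and 7.48 on the KY1005.F arrays of R.211, R.206 and R.212, against 8.97 to 10.26 in NoRx.F. The mean of the 7 SNRP genes other than SNRPN was 10.08, 10.23 and 10.08 on the same KY1005.F arrays, against 10.30 to 10.99 in NoRx.F. Of the other splicing genes 6 were higher in KY1005.F, led by CLK1 (1.56), TRA2A (1.16) and CLK4 (1.10), and 4 were lower, led by LSM3 (-0.85), CASC3 (-0.75) and DDX23 (-0.60). The 8 followed genes not called ran from -0.38 for U2AF1 to 0.34 for HNRNPK, and 8 of 13 division genes were lower in KY1005.F than in NoRx.F. In the same comparison 1 of 5 granulocyte (3.03) and 1 of 2 NK cell genes (2.87) were higher, and 1 of 5 B cell and 1 of 4 plasma cell genes were lower.

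KY1005.Siro.D14 had 3 splicing factors higher and 12 lower than NoRx.F, against 7.23% and 12.2% of all genes. HNRNPLL (-1.16), SNRPA (-1.08), SNRPB (-1.004), SF3A1 (-0.89), SNRPD3 (-0.83), HNRNPM (-0.67), HNRNPF (-0.61) and SNRPF (-0.55) were the largest falls, and HNRNPH1 (0.86), SRSF6 (0.83) and HNRNPH3 (0.80) were the rises. HNRNPLL read 9.76, 9.90, 9.43, 9.47 and 10.004 in KY1005.Siro.D14, all below the NoRx.F arrays. Of the 41 splicing factors, called or not, 7 lay wholly below NoRx.F and 3 wholly above it. Over all 10694 genes these counts were 901 and 704. U2AF1 (-0.47) was lower too, and the 7 followed genes not called ran from -0.94 for HNRNPC to 0.33 for SNRPN. Of the other splicing genes 9 were higher in KY1005.Siro.D14, led by ELAVL1 (1.197), CLK4 (1.15) and CLK1 (1.14), and 7 were lower, led by CASC3 (-0.96), LSM3 (-0.75) and TXNL4A (-0.71). Division genes were lower in 12 of 13, and 2 of 5 B cell and 1 of 4 plasma cell genes were lower too. KY1005.Siro.D14 and NoRx.F likewise share no batch, and their arrays are of day 14 against days 6 to 12.

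In Auto.D36, the autologous group taken 30 to 36 days after HCT, 1 was higher and 5 lower than in NoRx.F, against 2.47% and 3.34% of all genes. SNRPA (-0.78), SNRPF (-0.73), SNRPD3 (-0.56), SNRPE (-0.54) and SRSF9 (-0.36) were lower, and SNRPN (0.43) was higher. That count of 6 was 3 without the Auto.D36 array of R.200, 1 without R.202, and 11, 2 and 3 without the NoRx.F arrays of R.53, R.50 and R.52. The 7 followed genes not called ran from -0.56 for HNRNPLL to 0.35 for HNRNPK. QKI (0.51) was the only other splicing gene higher in Auto.D36 than in NoRx.F, and CASC3 (-0.64), LSM3 (-0.63) and TXNL4A (-0.61) were the largest of 4 differences below 0 that passed. Of the 13 division genes 5 were lower in Auto.D36, as were 1 of 5 B cell and 1 of 4 plasma cell genes, while 1 of 2 NK cell genes was higher. Without a batch term 6 splicing factors were higher and 6 lower, and with the filter at the 75th percentile 4 were higher and 6 lower. The days of these arrays do not overlap, and the only batch in common holds 1 array of each group.

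**Figure D4:**
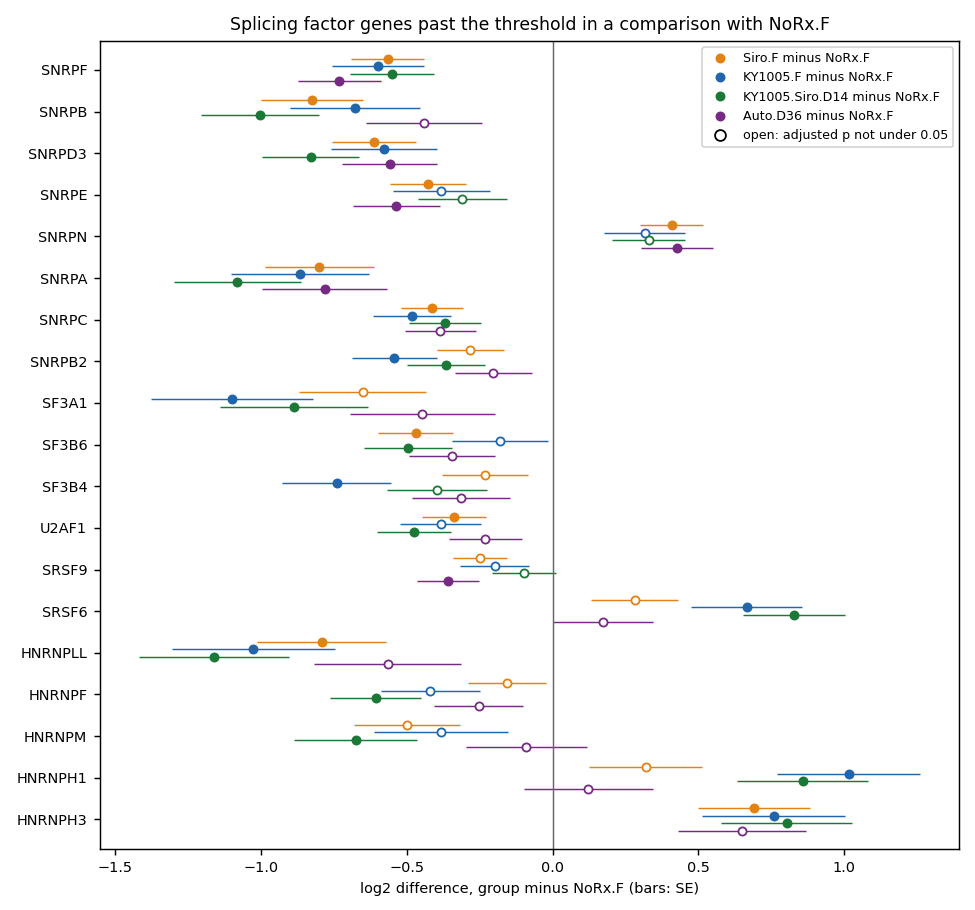
Log2 difference of Siro.F, KY1005.F, KY1005.Siro.D14 and Auto.D36 minus NoRx.F for 19 splicing factors, with bars for the standard error of the fit. SNRPA, SNRPD3 and SNRPF lie left of 0 in all 4 comparisons, which share the NoRx.F arrays, and SNRPN and HNRNPH3 lie right of 0.

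Pairs of times within a treatment were compared in KY1005.Siro, Tac.Mtx and the later autologous groups, and no splicing factor passed the test. From KY1005.Siro.D14 to KY1005.Siro.D28 0 splicing factors were called by limma, against 0.00935% of all genes. An unadjusted p under 0.05 was reached by 10 of 41, against 828 of 10694 genes. From KY1005.Siro.D28 to KY1005.Siro.F 0 were called, against 2.52% of all genes, and 1 was called without the KY1005.Siro.F array of R.221. With all arrays 7 of 41 had an unadjusted p under 0.05, against 1281 of 10694 genes. From Tac.Mtx.D14 to Tac.Mtx.F 0 were called, against 0.00935% of all genes. There 0 of 41 had an unadjusted p under 0.05, against 477 of 10694 genes. From Auto.D36 to Auto.D100 0 were called, against 0% of all genes. An unadjusted p under 0.05 was reached by 2 of 41, against 519 of 10694 genes. HNRNPA1 had the lowest adjusted p of these comparisons, 0.0768, for a difference of -0.40 between KY1005.Siro.F and KY1005.Siro.D28. The 9 followed genes ran from -0.25 for HNRNPLL to 0.91 for HNRNPC in KY1005.Siro.D28 minus KY1005.Siro.D14, and from -0.40 for HNRNPA1 to 0.01 for SNRPN in KY1005.Siro.F minus KY1005.Siro.D28. They ran from -0.19 for HNRNPC to 0.23 for HNRNPLL in Tac.Mtx.F minus Tac.Mtx.D14, and from -0.62 for HNRNPC to 0.22 for HNRNPLL in Auto.D100 minus Auto.D36. PRPF8, the large U5 protein, was the only other splicing gene called, with a difference of -0.35 between KY1005.Siro.F and KY1005.Siro.D28. In that comparison 2 granulocyte genes and 1 gene each of the B cell, erythroid and platelet lists were higher in KY1005.Siro.F. With the animal as a fixed block, 0 were called in either KY1005.Siro comparison or in that of Tac.Mtx. The fixed block was not fitted for Auto.D100 and Auto.D36, since the 3 animals with both arrays have them in different batches, and with the animal as a random block 0 were called there.

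Some splicing factors correlated with the actin difference among healthy arrays, in tests without a batch term. The part of batch in these correlations was not tested. They were computed for the splicing factors only, so the counts below have no share of all genes beside them. Whether other genes correlate as often was not tested. Over the 41 healthy arrays with an actin difference of 2.5 or less, 7 of 41 splicing factors correlated with that difference by Pearson's r and 4 by Spearman's rho, all negatively, after Benjamini-Hochberg adjustment over the 41 (permutation tests, two-sided). HNRNPM had r = -0.64 (permutation p = 1e-05, the smallest that these permutations can give, adjusted 0.00041) and rho = -0.61 (adjusted 0.00082), and r was -0.52 without the 2 arrays farthest from the median actin difference. HNRNPC had r = -0.49 (permutation p = 0.00097, adjusted 0.0133) and rho = -0.53 (permutation p = 0.00043, adjusted 0.00588), and r was -0.55 without those 2 arrays. SNRPB had r = -0.52 (adjusted 0.0133) and rho = -0.54 (adjusted 0.00588), and SF3A3 had r = -0.49 (adjusted 0.0136) and rho = -0.50 (adjusted 0.00974) in the same permutation tests. HNRNPH2, SRSF5 and SNRPD3 passed by r only, and r for HNRNPH2 was -0.41 with all 41 arrays and -0.26 without those 2. The actin difference of the NoRx.F arrays was 0.12 to 0.91, against 0.25 to 3.95 in healthy arrays, with the array of R.53 below all healthy ones and the other 3 within their range. Without the 6 arrays of high actin difference, which hold no NoRx.F array, all 23 NoRx.F calls were made again. With the actin difference as a covariate in the fit 24 genes were called in NoRx.F, 22 of them among the 23.

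**Figure D5:**
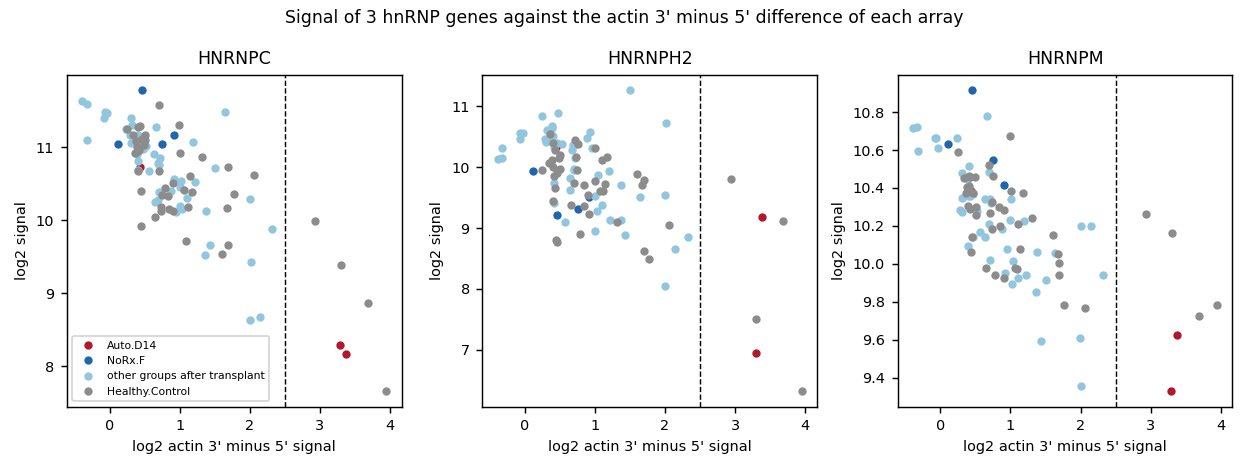
Log2 level of HNRNPC, HNRNPH2 and HNRNPM against the actin 3' minus 5' difference of each array (log2), with a dashed line at 2.5. The arrays right of the line are 2 of Auto.D14 and 4 healthy ones, and the Auto.D14 arrays there read 8.29 and 8.16 for HNRNPC.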

How the data were processed

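CD3 T cells were sorted from blood, total RNA was isolated with a column kit and labelled by a 3' in vitro transcription protocol, per the labels' protocols. The deposited table holds 52865 probe sets on 102 arrays as log2 values. The authors made these log2 values with RMA in the affy package, per the submitters' processing notes; their versions, and whether values were adjusted for batch before deposition, are not given in the sources used here. An array gives no read depth, so that precision is limited by the number of arrays.

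Probe sets were named through the platform annotation: 24969 name 1 gene, 361 several and 27535 none, and the 158 control probe sets were left out of the tests. All 42 splicing factors matched the RefSeq gene table by identifier and symbol. No sequence was printed. Probe sets whose names end in s_at or x_at can match several transcripts or related genes, which applies here to HNRNPA1, HNRNPC, HNRNPD, HNRNPDL, HNRNPM, SF3B4, SF3B6, SNRPC and SNRPE. A probe set was kept where at least 3 arrays reached the median of all values (5.21), which left 31703. The 2 healthy arrays of R.201 were averaged. One fit of 16 groups and 6 batches was made in limma 3.58.1 (R 4.3.3), with 80 residual and 3.38 prior degrees of freedom and Benjamini-Hochberg adjustment over all probe sets kept. The fit was also run on simulated independent normal values with known changes placed in NoRx.F. These values held no effect of batch, animal, cell mixture or RNA quality, so that run cannot speak to such effects. Tables and figures were made with pandas 2.3.3 and matplotlib 3.10.9 in Python 3.11.15. Correlations used 100000 permutations.

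The members and gene lists were chosen with earlier results of these data known. In each comparison the text names the 8 largest rises and falls among members past the threshold, 9 genes named whether called or not, the 3 brightest and 3 dimmest members in healthy arrays, and the 3 largest rises and falls among the other splicing genes called. The same rule asked for the 2 largest differences of each cell type or division list. These are given in full only for the division, myeloid and T cell lists in NoRx.F. Single values are given for some other lists and groups, and otherwise the counts of the lists with a call. Arrays of a group come from different animals. The p-values rest on 1 spread per gene, pooled over the arrays of all 16 groups, and the main fit has no term for the animal. Some animals have arrays in several groups. Same-animal arrays were checked for shared deviations from the group means: the correlation ran from -0.0853 to 0.441 over 5 pairs in KY1005.Siro.D28 and KY1005.Siro.D14, from -0.064 to 0.366 over 4 pairs in KY1005.Siro.F and KY1005.Siro.D28, from 0.221 to 0.395 over 3 pairs in Tac.Mtx, and from 0.153 to 0.569 over 3 pairs in Auto. The pairing comes from the animal names in the labels.

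Counts of calls were recomputed after dropping the batch term, after adding the animal as a fixed or random block, within batches, with no filter or one at the 75th percentile, after further quantile normalization, on each gene's probe sets averaged, after leaving out arrays of high actin difference (over 2.5) or with it as a covariate, with a minimum change of 1.5-fold, and after leaving out each array in turn in the transplant groups of 2 to 5 arrays. The fits of Siro.F with NoRx.F and of the KY1005.Siro times within their batches were chosen after seeing the data.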

Additional observations from a re-analysis of the deposited data

Results flagged for a closer look

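Of 50 pairs of a splicing factor and a group of 4 to 10 arrays, 6 had 1 array far from the others by Dixon's criterion, and chance gives such an array in about 1 of 20 groups. In NoRx.F, HNRNPK read 11.83 on the array of R.51 and 12.32 to 12.35 on the others. In KY1005.Siro.D28, HNRNPF read 10.57 for R.217 and 11.14 to 11.28 for the others, and HNRNPL read 12.19 for R.221 and 11.91 to 11.99 for the others. In the same group the array of R.218 was the highest for HNRNPLL, at 9.66 with the others at 9.37 to 9.45, and for SNRPN, at 11.39 with the others at 11.20 to 11.23. In Auto.D36, SNRPB read 9.48 for R.62 and 9.996 to 10.086 for the others; the array of R.62 was also the only one of that group from day 30 and from batch 2, and its myeloid mean was 10.38, against 5.73 to 7.30 on the others.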

How the results depend on the processing

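The count of splicing factors called in NoRx.F against healthy arrays was 23 and ran from 20 to 22 when each NoRx.F array was left out. It was 27 without a batch term and 19 within the batches of the group, and all 23 were called again without the arrays of high actin difference. When each gene's probe sets were averaged, 17 genes were called in NoRx.F, 11 higher and 6 lower. Only 15 of these 17 were among the 23, so part of the calls depended on the choice of probe set. A minimum change of 1.5-fold left 12. Further quantile normalization moved the median difference of all genes to -0.104 in KY1005.F against healthy arrays, -0.101 in KY1005.Siro.D28, -0.138 in KY1005.Siro.F, 0.161 in Auto.D14 and -0.172 in KY1005.F against NoRx.F.

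Smaller counts moved more. Without a batch term there were 4 calls in KY1005.F, 6 in KY1005.Siro.D14 and 19 in KY1005.F against NoRx.F. Within batches there were 2 in Siro.F and 0 in KY1005.Siro.D14, KY1005.Siro.D28, KY1005.Siro.F and, in the fit chosen after seeing the data, Siro.F against NoRx.F; these fits hold fewer arrays. Without a filter on low values there was 1 in KY1005.Siro.D14 and there were 3 in KY1005.Siro.F, and with the filter at the 75th percentile 2 in KY1005.F. With further quantile normalization there were 5 in KY1005.F and 8 in KY1005.Siro.F. With the mean of all probe sets there were 2 in Siro.F. Without the arrays of high actin difference there was 1 in each of KY1005.Siro.D14, KY1005.Siro.D28 and KY1005.Siro.F, and there were 7 in KY1005.F against NoRx.F. With the actin difference as a covariate there were 4 in KY1005.Siro.D28 and 1 in KY1005.Siro.F. With the 1.5-fold minimum there were 0 in Siro.F and KY1005.Siro.D14, 2 in KY1005.Siro.D28, 1 in KY1005.Siro.F and 5 in Siro.F against NoRx.F.

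Leaving out 1 array at a time gave 1 to 3 calls in Siro.F, 0 to 0 in KY1005.F, 0 to 1 in KY1005.Siro.D14, 4 to 7 in KY1005.Siro.D28 and 0 to 7 in KY1005.Siro.F. It gave 4 to 13 in Siro.F against NoRx.F (4 without R.17), 5 to 15 in KY1005.F against NoRx.F (5 without R.212) and 0 to 0 in KY1005.Siro.D28 against KY1005.Siro.D14. With the animal as a random replicate block (correlation 0.11) there was 1 call in KY1005.F, and as a fixed block there were 0 in the 3 comparisons of times it was fitted for; the block changed no other count listed here by over 1.5 times.

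In the other groups, counts that moved by over 1.5 times without a batch term were 3 in KY1005.D14, 1 in Tac.Mtx.D14, 6 in Auto.D36 and 12 in Auto.D36 against NoRx.F. Within batches there were 11 in Auto.D14, 1 in Auto.D100, 1 in Bela.Siro.D14 and 0 in Bela.Siro.D30, and with the actin covariate 9 in Auto.D14 and 1 in Tac.Mtx.D14. The 1.5-fold minimum left 10 in Auto.D14, 1 in Auto.D36, 1 in Tac.Mtx.F, 2 in Auto.D36 against NoRx.F and 0 in the Bela.Siro groups.

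Among genes called in a comparison, with all arrays or under the alternative, differences that changed sign were those of HNRNPK in NoRx.F (0.18) and SF3B5 in Bela.Siro.F (-0.0238), both with the mean of all probe sets, and HNRNPH2 in Auto.D14 (0.12) without the arrays of high actin difference. Differences near 0 of genes not called also crossed it. The causes were not tested.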
